A study of Homo sapiens with 6 samples.

Results

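The SOX and TCF/LEF transcription factors described here are 9 of the 56632 genes in the expression tables of HCT116 cells: SOX2, SOX4, SOX9, SOX12, SOX13, TCF7, TCF7L1, TCF7L2 and LEF1. They were selected on measured values, the TPM and expected counts of these same libraries, in which SOX4 was higher and SOX9 lower after Matrin3 knockdown, so all values of the 9 genes between the groups are descriptions and carry no test. Poly(A) RNA was sequenced from HCT116, an established human colorectal cancer line. The siMatrin3 group was transfected with a pool of small interfering RNAs against Matrin3, the product of MATR3 that binds RNA in the nucleus, and the siCTRL group with a non-targeting control siRNA. Cells of both groups were transfected on 2 occasions 72 h apart. The labels give 48 h more, while the methods describe reseeding at that point and RNA purified 3 days from the last transfection. There were 3 libraries a group, which the study calls biological triplicates of a single cell line, and with a single pool and no rescue among these libraries, loss of Matrin3 and other effects of the siRNAs cannot be told apart.

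Both families bind DNA through an HMG box, a domain that sits in the minor groove and bends the helix. TCF/LEF factors are the nuclear end of canonical WNT signalling. On their own they recruit TLE corepressors, and when beta-catenin is stabilised it binds them and turns the same sites into activators. In the intestine this pathway maintains crypt stem cells, and it is activated by mutation in most colorectal cancers. HCT116 carries a stabilising mutation of the beta-catenin gene. SOX factors fall into groups by their HMG box. SOX4 and SOX12 belong to the SoxC group, SOX9 to SoxE, SOX13 to SoxD and SOX2 to SoxB. SOX9 marks progenitor and Paneth cells at the crypt base and lies downstream of WNT signalling there, while SOX4 is an activator of progenitor and tumour programmes in many epithelia.

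RefSeq promoter windows on GRCh38.p14, 250 bases before to 50 bases after a gene's start, were found for 8 of the 9 genes, with 11 windows in all. Of those, 4 are shown because they allow a gene that moved to be set beside a relative or partner that did not: SOX4 (chr6:21593501-21593800, plus strand) beside its SoxC relative SOX12 (chr20:325302-325601, plus strand), then SOX13 (chr1:204072865-204073164, plus strand), and the first window of TCF7L2 (chr10:112949997-112950296, plus strand), the most abundant of the 9. Capitals mark CCAAT, a common promoter box, or ACAAT, the core that SOX factors favour, on either strand (ATTGG and ATTGT on the strand shown).
SOX4: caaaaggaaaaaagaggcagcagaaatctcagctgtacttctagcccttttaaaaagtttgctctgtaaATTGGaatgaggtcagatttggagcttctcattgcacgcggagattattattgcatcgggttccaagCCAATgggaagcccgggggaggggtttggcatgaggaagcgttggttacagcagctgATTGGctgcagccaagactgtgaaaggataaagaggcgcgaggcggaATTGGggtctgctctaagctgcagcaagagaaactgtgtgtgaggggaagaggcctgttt
SOX12: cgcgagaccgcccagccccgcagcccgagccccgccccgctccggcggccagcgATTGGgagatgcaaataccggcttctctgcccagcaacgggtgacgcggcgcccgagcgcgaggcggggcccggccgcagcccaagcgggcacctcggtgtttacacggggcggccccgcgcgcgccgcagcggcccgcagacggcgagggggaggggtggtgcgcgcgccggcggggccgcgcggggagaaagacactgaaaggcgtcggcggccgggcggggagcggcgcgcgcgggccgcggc
SOX13: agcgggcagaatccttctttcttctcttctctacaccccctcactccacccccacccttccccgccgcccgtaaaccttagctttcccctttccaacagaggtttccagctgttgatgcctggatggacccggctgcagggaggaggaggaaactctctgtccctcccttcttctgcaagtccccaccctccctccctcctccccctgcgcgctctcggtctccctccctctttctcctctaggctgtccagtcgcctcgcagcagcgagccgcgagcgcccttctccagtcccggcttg
TCF7L2: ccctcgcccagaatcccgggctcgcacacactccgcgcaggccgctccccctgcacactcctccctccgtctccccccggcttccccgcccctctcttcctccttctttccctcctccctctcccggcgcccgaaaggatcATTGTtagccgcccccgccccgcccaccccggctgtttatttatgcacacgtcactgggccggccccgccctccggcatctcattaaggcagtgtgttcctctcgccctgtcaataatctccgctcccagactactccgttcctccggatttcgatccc
The SOX4 window held 4 CCAAT matches and the SOX12 window 1. The SOX13 window had no match to CCAAT, to ACAAT or to the TCF/LEF core searched as CTTTGA or CTTTGT. Of the 11 windows, 3 had a TCF/LEF match, against 26.2% of all 34796 windows of the same length, and 3 had an ACAAT match, against 27.4%. CCAAT was in 5 of the 11, against 34.6% of all windows. The TCF/LEF matches lay in the SOX2 window and in the second windows of TCF7 and TCF7L2, and all 3 TCF7L2 windows held ACAAT. Matches of the 3 motifs were counted separately. These are letter matches in short windows and not known binding sites.

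The siMatrin3 libraries held 43119176 to 54185650 expected counts and the siCTRL libraries 40808173 to 52922637. MATR3 had 95.17, 112.05 and 110.67 TPM (a level scaled for transcript length and depth) in siMatrin3 libraries, against 186.39, 180.25 and 176.46 TPM in siCTRL libraries. Its log2 fold change on counts was -0.93 ± 0.065 (SE; edgeR quasi-likelihood test, Benjamini-Hochberg adjusted p = 7.67e-05). With an offset for transcript length, the log2 fold change of MATR3 was smaller, at -0.77 ± 0.060 (SE). A second MATR3 gene model that shares exons with it in GENCODE is not listed in the expression tables. The summed TPM of 12 markers of colon epithelium was 2974 to 3185 in siMatrin3 libraries and 3209 to 3364 in siCTRL libraries, most of all from KRT8, so the groups did not overlap, and the part of this in the differences given here was not tested. VIL1, CDX1 and CDH17 of that list were under 1 TPM in every library. Fibroblast markers summed to 14.95 to 19.1 TPM in siMatrin3 libraries and 13.7 to 16.2 TPM in siCTRL libraries, with COL1A2, DCN and LUM at 0, and immune markers to 13.2 to 19.3 and 12.2 to 17.7 TPM, with PTPRC at 0. Of the 7 fibroblast markers, 6 were under 1 TPM in every library, all but COL1A1. Of the 6 immune markers, 5 were, all but CD68. The 3 endothelial markers found in the tables stayed at or below 0.26 TPM summed, and the 5 neural markers at or below 1.57 TPM.

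SOX4 was the most abundant SOX gene in both groups. It had 89.46, 94.96 and 93.73 TPM in siMatrin3 libraries, against 78.03, 72.44 and 78.73 TPM in siCTRL libraries. Every siMatrin3 library lay above every siCTRL library. The mean was 92.7 ± 2.89 TPM in siMatrin3 libraries and 76.4 ± 3.45 TPM in siCTRL libraries (SD, n = 3 each), and the fitted log2 fold change on counts was 0.30 ± 0.045 (SE), or 23.1% higher. These levels rest on 15798 to 18710 expected counts per siMatrin3 library and 11373 to 15893 per siCTRL library. SOX4 has no intron, and an antisense transcript that is not listed in the expression tables overlaps it by 168 bases in GENCODE. Per the methods, the libraries were made with a stranded kit. Whether the authors' counting used strand is not given in the sources used here, so reads of the pair may not be separated.

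SOX9 moved the other way. It had 30.65, 28.72 and 29.62 TPM in siMatrin3 libraries, against 43.87, 42.92 and 43.16 TPM in siCTRL libraries. The groups did not overlap, and the gap between them was wide beside the spread within each. The mean was 29.7 ± 0.966 TPM in siMatrin3 libraries and 43.3 ± 0.494 TPM in siCTRL libraries (SD, n = 3 each). On counts SOX9 fell by 30.5%, and the log2 fold change was -0.52 ± 0.044 (SE). In size this change exceeded that of 93.1% of the genes tested, while the change of SOX4 exceeded that of 82.9%. Since both genes were chosen for their directions, nothing is read from these ranks. In bulk RNA, fewer cells with SOX9 and less SOX9 RNA per cell cannot be told apart. The sum of colon epithelium markers was also lower, and its part in the SOX9 difference was not tested.

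The antisense neighbour SOX9-AS1, named after its values were seen, shares no exon with SOX9. It had 15, 25 and 27 expected counts in siMatrin3 libraries, against 46, 26 and 55 in siCTRL libraries. The ranges overlapped, and its log2 fold change of -0.88 ± 0.331 (SE) did not pass the threshold (edgeR adjusted p = 0.119).

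**Figure D1:**
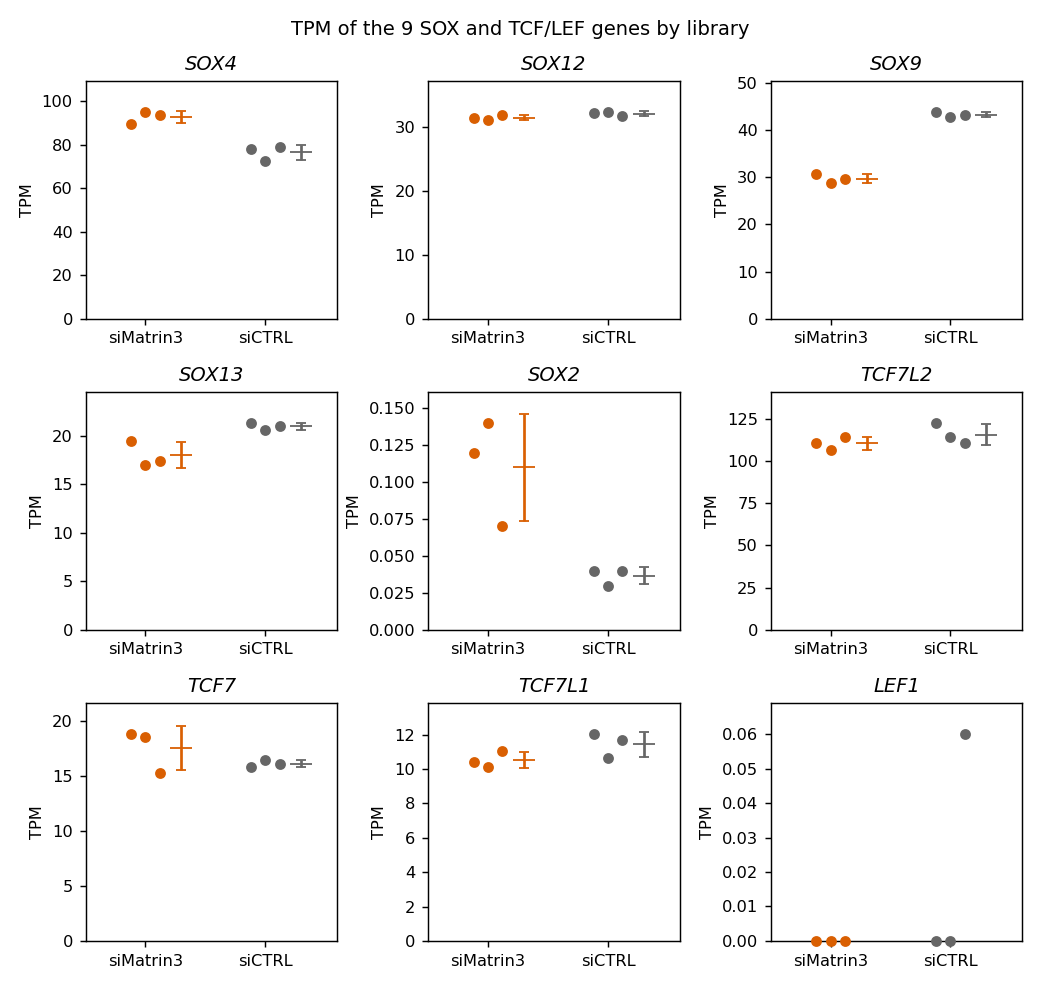
TPM of the 9 genes in each library (points) with the group mean and SD beside them (not drawn for LEF1), siMatrin3 to the left of siCTRL, each axis starting at 0. The groups stand apart for SOX4, SOX9, SOX13 and, at levels at or below 0.14 TPM, SOX2, and they overlap for SOX12, TCF7, TCF7L1 and TCF7L2.

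The opposite moves of SOX4 and SOX9 changed their balance. The ratio of SOX4 to SOX9 TPM was 2.92, 3.31 and 3.16 in siMatrin3 libraries, against 1.78, 1.69 and 1.82 in siCTRL libraries, with means of 3.13 ± 0.196 and 1.76 ± 0.0694 (SD, n = 3 each). Both genes that define this ratio were chosen for their directions, so its shift adds nothing to the values above.

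SOX12, the other expressed SoxC gene, differed little between the groups. It had 31.51, 31.14 and 31.86 TPM in siMatrin3 libraries, against 32.24, 32.38 and 31.70 TPM in siCTRL libraries. The ranges overlapped, and the log2 fold change was 0.01 ± 0.043 (SE), with a sign that turned among the alternatives, over which it ran from -0.03 to 0.03. With SOX9 lower, the order of these genes changed. SOX9 exceeded SOX12 in every siCTRL library, by a ratio of 1.33 to 1.36, whereas in siMatrin3 libraries the ratio of SOX9 to SOX12 was 0.922 to 0.973. As SOX9 was chosen for its fall, nothing is read from this order.

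SOX13, a SoxD factor that is known to bind TCF7 in mouse T cells, had 19.53, 17.05 and 17.46 TPM in siMatrin3 libraries, against 21.33, 20.61 and 21.05 TPM in siCTRL libraries. The groups did not overlap, with the first siMatrin3 library nearest to siCTRL. The mean was 18.0 ± 1.33 TPM in siMatrin3 libraries and 21.0 ± 0.363 TPM in siCTRL libraries (SD, n = 3 each), and the log2 fold change came to -0.21 ± 0.054 (SE). Over the alternatives the log2 fold change ran from -0.26 to -0.17, and without siMatrin3 replicate 3 it was -0.17.

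SOX2, a pluripotency factor, was barely detected. It had 8, 10 and 6 expected counts in siMatrin3 libraries, against 4, 2 and 4 in siCTRL libraries, or 0.12, 0.14 and 0.07 TPM against 0.04, 0.03 and 0.04 TPM. The counts of the groups did not overlap, but they were too few to pass the filter on low counts. Summed over libraries, 24 counts in siMatrin3 and 10 in siCTRL gave a depth-scaled ratio of 2.38. Its exact 95% interval of 1.10 to 5.59 covers counting error only. That interval leaves out the spread between libraries and is no test of a difference. The host transcript SOX2-OT, which encloses SOX2 on the same strand and shares no exon with it, had 2, 3 and 5 counts in siMatrin3 libraries and 2, 1 and 2 in siCTRL libraries.

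Summed over the 5 SOX genes, the level was almost the same in both groups, at 172.0 ± 0.735 TPM in siMatrin3 libraries and 172.9 ± 3.90 TPM in siCTRL libraries (SD, n = 3 each). What differed was its makeup. SOX4 made up 53.9 ± 1.52% of the sum in siMatrin3 libraries and 44.2 ± 1.05% in siCTRL libraries, and SOX9 17.2 ± 0.606% and 25.1 ± 0.395% (SD, n = 3 each). The share of SOX12 was 18.3 ± 0.185% in siMatrin3 libraries and 18.6 ± 0.572% in siCTRL libraries, and that of SOX13 was 10.5 ± 0.81% and 12.1 ± 0.0949%. By structural group, the SoxC genes SOX4, SOX11 and SOX12 summed to 124.2 ± 2.83 TPM in siMatrin3 libraries and 108.5 ± 3.19 TPM in siCTRL libraries. The SoxE genes SOX8, SOX9 and SOX10 summed to 33.5 ± 1.29 TPM in siMatrin3 libraries and 46.3 ± 0.669 TPM in siCTRL libraries. With SOX4 and SOX9 chosen for their opposite directions, nothing is read from the sum, the shares or the group sums.

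**Figure D2:**
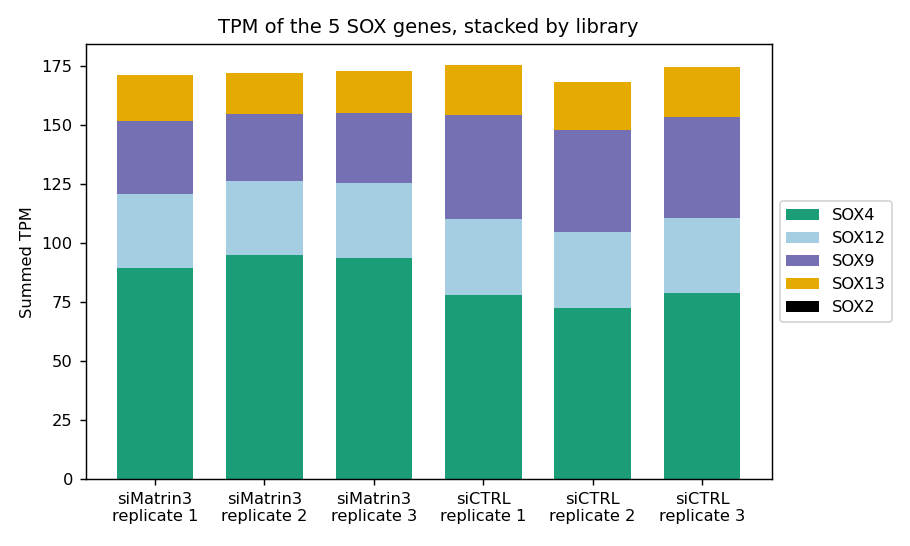
TPM of SOX4, SOX12, SOX9, SOX13 and SOX2 stacked for each library, siMatrin3 libraries to the left of siCTRL libraries. Bar heights run from 171.27 to 172.74 TPM in siMatrin3 libraries and from 168.38 to 175.51 TPM in siCTRL libraries. The SOX4 segment is larger and the SOX9 segment smaller after knockdown, the directions for which both genes were chosen.

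TCF7L2, the main TCF/LEF factor of the intestinal epithelium, was the most abundant of the 9 genes in both groups. It had 110.65, 106.65 and 113.97 TPM in siMatrin3 libraries, against 122.36, 114.00 and 110.42 TPM in siCTRL libraries. The ranges overlapped. The log2 fold change on counts was 0.00 ± 0.037 (SE) while mean TPM was 110.4 ± 3.67 in siMatrin3 libraries and 115.6 ± 6.13 in siCTRL libraries (SD, n = 3 each), and over the alternatives the log2 fold change ran from -0.07 to 0.01.

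TCF7, best known for its part in T cell development, had 18.77, 18.54 and 15.27 TPM in siMatrin3 libraries, against 15.77, 16.48 and 16.08 TPM in siCTRL libraries. The third siMatrin3 library lay below all siCTRL libraries and the other 2 above them. The log2 fold change was 0.15 ± 0.053 (SE) and ran from 0.10 to 0.20 over the alternatives. In GENCODE its exons overlap those of SKP1 on the opposite strand by 210 bases.

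TCF7L1, often a repressor of WNT targets, had 10.40, 10.10 and 11.05 TPM in siMatrin3 libraries, against 12.02, 10.64 and 11.68 TPM in siCTRL libraries. The ranges overlapped, and the log2 fold change was -0.12 ± 0.059 (SE). LEF1, a factor that is often switched on in colon cancer, was hardly detected. No siMatrin3 library had a LEF1 count, which allows levels of up to 0.0554 to 0.0696 CPM (3 counts per library), and siCTRL libraries had 0, 0 and 1 count, so no fold change can be given.

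Together the 4 TCF/LEF genes summed to 138.5 ± 2.76 TPM in siMatrin3 libraries and 143.2 ± 6.21 TPM in siCTRL libraries (SD, n = 3 each). TCF7L2 made up 79.7 ± 1.31% of this sum after knockdown and 80.7 ± 0.81% in siCTRL libraries. In siCTRL libraries the order of TPM ran TCF7L2, SOX4, SOX9, SOX12, SOX13, TCF7, TCF7L1, SOX2 and LEF1, and the ranges of neighbours did not overlap except for SOX2 and LEF1. In siMatrin3 libraries SOX12 stood above SOX9, and the ranges of SOX13 and TCF7 overlapped.

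Of the 9 genes, 7 passed the filter on low counts and 2 (SOX2 and LEF1) did not. The TPM ranges of the groups did not overlap for 3 of the 7 (SOX4, SOX9 and SOX13), against 25.1% of all genes tested. Since SOX4 and SOX9 led to the choice of these genes, nothing is read from this count. The median log2 fold change of the 7 was 0.00 and the median absolute value 0.15, beside 0.107 over all genes tested.

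**Figure D3:**
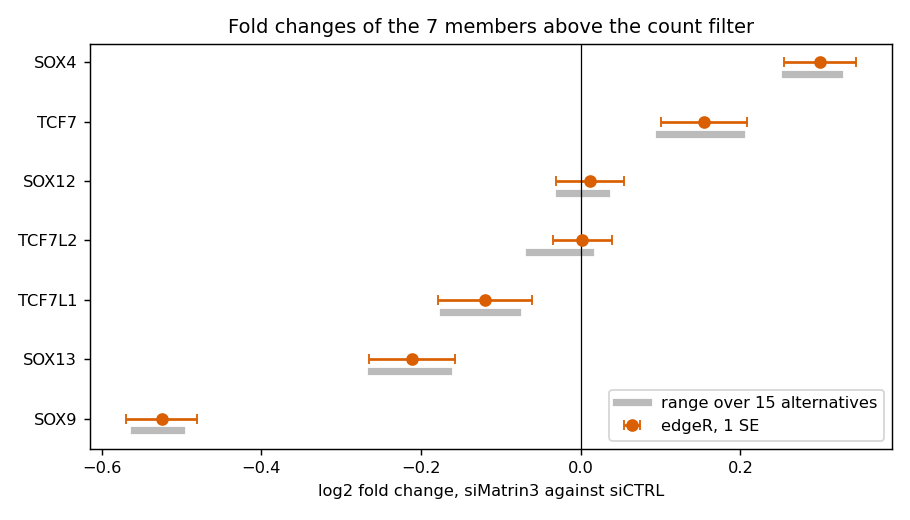
Log2 fold change, siMatrin3 against siCTRL, of the 7 genes above the count filter: points with bars of 1 SE from edgeR, and below each a grey line over the range of 15 alternative settings. SOX4 stays above 0 (0.26 to 0.32) and SOX9 below it (-0.56 to -0.50), while the lines of SOX12 and TCF7L2 cross 0. SOX4 and SOX9 were chosen for these directions in the same libraries.

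The tables also give, per gene and library, a transcript length averaged over isoforms with their estimated abundance as weights, which moves when isoform use does. For SOX4 and SOX9 it was constant across libraries, at 4876 and 3935 bases, and SOX9 has a single transcript in the tables. TCF7L1 was the only gene of the 6 tested ones with several transcripts whose groups did not overlap, at 2880, 2881 and 2880 bases in siMatrin3 libraries, against 2906, 2918 and 2910 bases in siCTRL libraries, beside 10.2% of 14200 such genes in the tables. The shift was small, with a log2 difference of -0.016. For SOX12, SOX13, TCF7 and TCF7L2, the last with 22 transcripts, the lengths of the groups overlapped.

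Over the 6 libraries and 10111 genes with a mean of at least 5 TPM, the genes whose log2 CPM, centred on its mean, differed least from that of SOX4 were MYC, KLF5 and SLC25A33. MYC is a growth-promoting transcription factor and WNT target, KLF5 a zinc finger factor of proliferating crypt cells, and SLC25A33 a mitochondrial pyrimidine nucleotide carrier. The mean absolute difference from SOX4 was 0.0178 for MYC, 0.0185 for KLF5 and 0.0202 for SLC25A33 on the log2 scale. KLF5 averaged 45.3 TPM in siMatrin3 libraries and 37.6 TPM in siCTRL libraries, and SLC25A33 13.8 and 11.5 TPM.

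For SOX9 the closest were TSPAN13, a tetraspanin, SORT1, the sorting receptor sortilin, and RHOBTB3. Their mean absolute differences from SOX9 were 0.0251, 0.0351 and 0.0378. TSPAN13 averaged 7.63 TPM in siMatrin3 libraries and 10.8 TPM in siCTRL libraries, SORT1 6.17 and 9.03 TPM, and RHOBTB3 24.6 and 37.9 TPM. These are descriptions over 6 points that share the division into 2 groups.

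**Figure D4:**
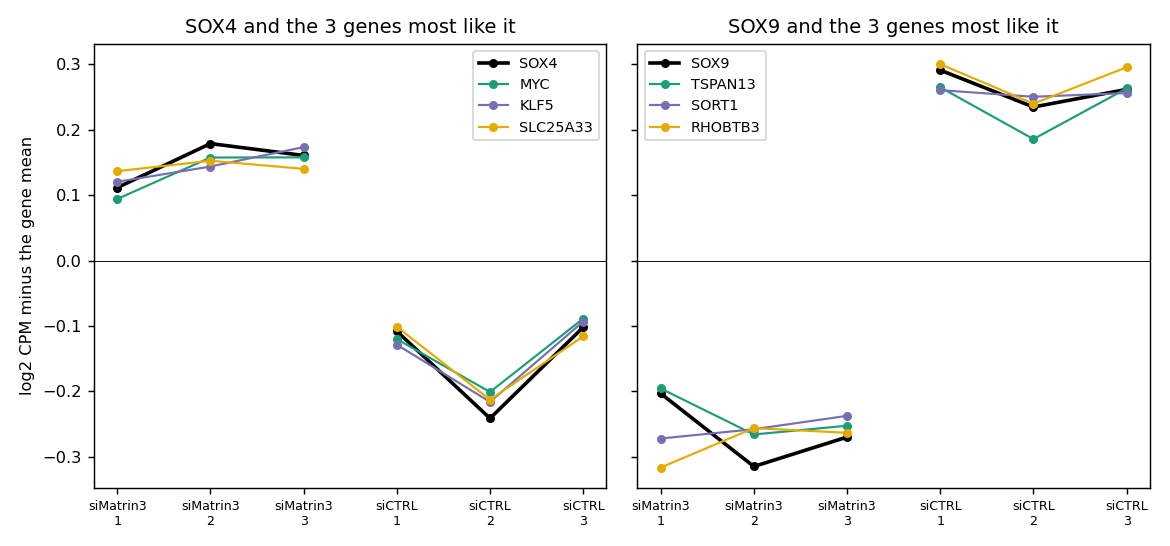
Log2 CPM of SOX4 (left) and SOX9 (right, black) and of the 3 genes most like each, minus each gene's mean over the 6 libraries, with siMatrin3 libraries to the left of siCTRL libraries. Lines join the libraries of a group only to guide the eye, and the 3 genes lie on average within 0.0202 of SOX4 and within 0.0378 of SOX9.

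Beyond the 9 genes, 14 other SOX genes were looked up, and 7 of them (SOX1, SOX3, SOX5, SOX11, SOX14, SOX17 and SOX21) were listed at 0 TPM in every library. Over all genes tested, edgeR called 11.0%, with 5.05% higher and 5.97% lower (847 and 1002 genes, against 636 higher and 1146 lower with upper quartile scaling). Of the 6 SOX genes that could be tested, it called 1 higher and 0 lower. DESeq2 called the same gene, and 1 had an unadjusted p under 0.05. The median log2 fold change was 0.01, beside -0.00106 over all genes tested, of which 4364 of 16786 (26.0%) had an unadjusted p under 0.05. SOX8, a SoxE relative of SOX9, had 4.15, 3.38 and 3.82 TPM in siMatrin3 libraries, against 3.15, 2.77 and 2.81 TPM in siCTRL libraries. Its groups did not overlap, and its log2 fold change was 0.37 ± 0.097 (SE; edgeR adjusted p = 0.036). The ratio of SOX9 to SOX8 was 7.88 ± 0.566 in siMatrin3 libraries and 14.9 ± 0.869 in siCTRL libraries (SD, n = 3 each). Nothing is read from this ratio, as SOX9 was chosen for its fall. The call of SOX8 was lost in both limma fits on TPM (0.137 and 0.143), with the length offset (0.0647) and without siMatrin3 replicate 1 (edgeR adjusted p = 0.117), siMatrin3 replicate 3 (0.107), siCTRL replicate 2 (0.0872) or siCTRL replicate 3 (0.119), and over all alternatives the adjusted p ran from 0.0026 to 0.143. SOX15 had 2.06 to 2.15 TPM in siMatrin3 libraries and 2.03 to 2.43 TPM in siCTRL libraries, and SOX10 stayed at or below 0.15 TPM.

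Of 36 genes listed for the beta-catenin complex (beta-catenin, its destruction complex, coactivators and corepressors), 35 could be tested. Of these, edgeR called 0 higher and 1 lower (2.86%, against 11.0% of all genes tested), with a median log2 fold change of -0.02. At an unadjusted p under 0.05 there were 7 in either direction (20.0%), and for 11 of the 35 the TPM ranges of the groups did not overlap, against 25.1% of all genes tested. DESeq2 called 1 gene, which was not the gene that edgeR called. Beta-catenin itself (CTNNB1) had 87.65, 92.67 and 92.14 TPM in siMatrin3 libraries, against 98.51, 93.66 and 97.73 TPM in siCTRL libraries. Every siMatrin3 library lay below every siCTRL library, and the log2 fold change of -0.07 was not past the threshold (edgeR adjusted p = 0.308, and 0.109 to 0.559 over the alternatives). TLE1, a Groucho-type corepressor that TCF/LEF factors recruit, had 14.99, 15.39 and 15.22 TPM in siMatrin3 libraries, against 16.86, 17.46 and 16.84 TPM in siCTRL libraries. Its log2 fold change was -0.14 (edgeR adjusted p = 0.0433), and TLE1 passed the threshold under 4 of 16 alternatives. The call was lost when any of the 6 libraries was left out (0.0699 to 0.142), with DESeq2 (0.15), without a filter on low counts (0.0899), in both limma fits on TPM (0.12 and 0.116) and with the length offset (0.105).

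Of 22 WNT receptors and transducers, 21 could be tested, and edgeR called 0 higher and 3 lower (14.3%, near the 11.0% of all genes tested), with a median log2 fold change of -0.03. At an unadjusted p under 0.05 there were 6 in either direction (28.6%, against 26.0%), and DESeq2 called 2 of the 3. FZD4, a Frizzled receptor, had 1.92, 1.97 and 1.79 TPM in siMatrin3 libraries, against 2.53, 2.42 and 2.72 TPM in siCTRL libraries. FZD4 fell by 0.41 on the log2 scale (edgeR adjusted p = 0.00632), its groups did not overlap, and it passed under 14 of 16 alternatives, the exceptions being both limma fits on TPM. Its exons overlap by 1399 bases those of PRSS23 on the opposite strand. PRSS23 had 186.35, 174.51 and 172.5 expected counts in siMatrin3 libraries, against 327.85, 304.72 and 286.28 in siCTRL libraries. The library kit was stranded, but the strand setting of the counting is not known, so reads of the pair may not be separated.

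The R-spondin receptors LGR4 and LGR6 were lower too, at low levels. LGR4 had 1.50, 1.59 and 1.94 TPM in siMatrin3 libraries, against 2.12, 2.20 and 2.12 TPM in siCTRL libraries, with a log2 fold change of -0.37 (edgeR adjusted p = 0.0197). LGR6 had 0.15, 0.17 and 0.17 TPM in siMatrin3 libraries, against 0.28, 0.41 and 0.32 TPM in siCTRL libraries, with a log2 fold change of -0.89 (edgeR adjusted p = 0.0379). Neither call was stable. That of LGR4 was lost when any library but siCTRL replicate 2 was left out (edgeR adjusted p = 0.0269 to 0.0632 over the 6 fits), and that of LGR6 when any of the 6 was (0.0718 to 0.111). Both limma fits on TPM and the length offset also lost the calls of LGR4 (0.103 to 0.214) and LGR6 (0.0592 to 0.138), and DESeq2 that of LGR6 (0.132).

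Of 25 genes known as WNT targets in colon, 21 could be tested, and edgeR called 2 higher and 3 lower (23.8%, against 11.0% of all genes tested), with a median log2 fold change of -0.02. The list was chosen with earlier results of these data known, so nothing is read from this share. At an unadjusted p under 0.05 there were 7 in either direction (33.3%, against 26.0%), and DESeq2 called 4 of the 5. RNF43, a ubiquitin ligase that removes Frizzled receptors, had 13.92, 14.26 and 13.56 TPM in siMatrin3 libraries, against 17.96, 19.12 and 20.15 TPM in siCTRL libraries, and fell by 0.47 on the log2 scale (edgeR adjusted p = 0.000269). JAG1, a Notch ligand, had 11.32, 10.83 and 11.60 TPM in siMatrin3 libraries, against 14.68, 15.59 and 15.21 TPM in siCTRL libraries, and fell by 0.40 on the log2 scale (edgeR adjusted p = 0.000494). MYC had 385.39, 406.75 and 406.83 TPM in siMatrin3 libraries, against 337.46, 324.44 and 344.37 TPM in siCTRL libraries, and rose by 0.27 on the log2 scale (edgeR adjusted p = 0.00271). None of these 3 had overlapping groups, and all 3 passed the threshold under each of the 16 alternatives. RNF43 shares exons on the same strand with a GENCODE gene model that is not listed in the expression tables.

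The other 2 target calls were less firm. DKK1, a secreted WNT inhibitor, had 76.55, 113.95 and 119.80 TPM in siMatrin3 libraries, against 70.76, 74.35 and 82.45 TPM in siCTRL libraries, a log2 fold change of 0.47 (edgeR adjusted p = 0.0401). Its first siMatrin3 library lay within the siCTRL range, and the call was lost when any library but that one was left out (0.00257 to 0.152 over the 6 fits). DKK1 passed under 5 of 16 alternatives, and it did not with DESeq2 (0.0788), upper quartile scaling (0.0518), limma on TPM (0.198 and 0.195) or the length offset (0.086). EPHB3, a receptor that positions crypt cells, had 2.49, 3.05 and 2.38 TPM in siMatrin3 libraries, against 3.11, 2.73 and 3.21 TPM in siCTRL libraries. Its TPM ranges overlapped, and its log2 fold change on counts was -0.37 (edgeR adjusted p = 0.0249) but -0.19 with weighted transcript length as an offset, where it did not pass the threshold (0.377, and 0.00331 to 0.478 over all alternatives). Without any library but siCTRL replicate 2 this call was lost too (0.0264 to 0.0932 over the 6 fits). AXIN2, the most widely used WNT reporter gene, had 2.01, 2.38 and 2.67 TPM in siMatrin3 libraries and 2.60, 3.33 and 2.83 TPM in siCTRL libraries, and its log2 fold change of -0.36 was not past the threshold (edgeR adjusted p = 0.0839). LGR5 and ASCL2, which mark crypt stem cells, were at or below 0.02 TPM in every library.

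**Figure D5:**
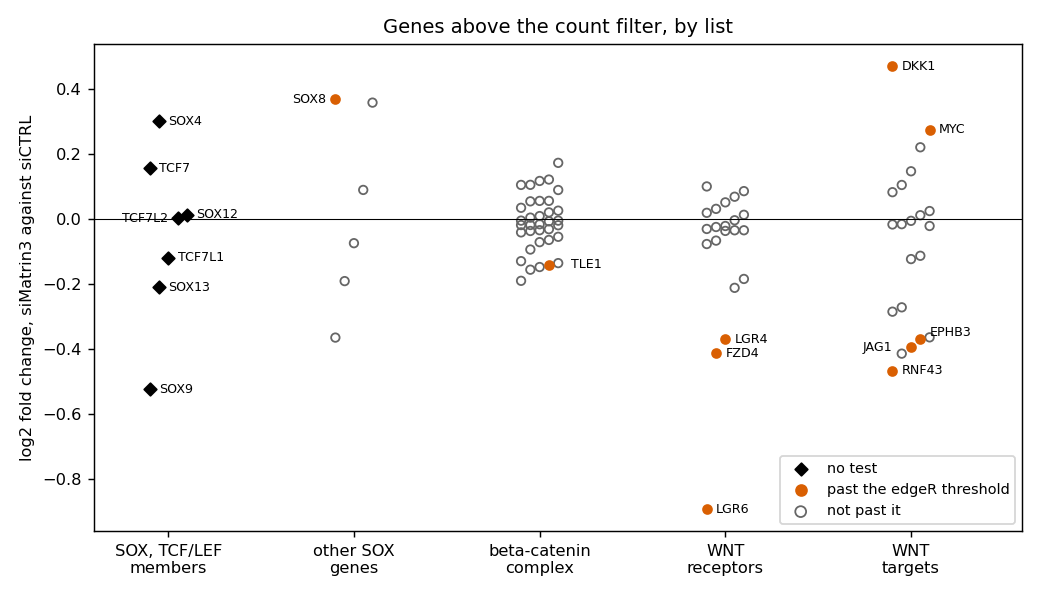
Log2 fold change, siMatrin3 against siCTRL, of the genes above the count filter in 5 lists, with list genes past the edgeR threshold filled and named, and the 7 members, which carry no test, as diamonds. The 35 tested beta-catenin complex genes lie between -0.19 and 0.17, and the 5 WNT targets past the threshold lie on both sides of it.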

How the data were processed

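Per the paper's methods and the submitters' processing notes, the authors trimmed poly(A) RNA-seq reads of 6 HCT116 libraries with cutadapt, aligned them to hg19 with STAR (2.5.1 in the notes, another version in the methods) and estimated gene levels with RSEM. For each library the authors deposited expected counts (estimated counts that divide shared reads), TPM, FPKM and an isoform-weighted transcript length. The deposited FPKM were not used. Libraries held 40808173 to 54185650 expected counts.

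The quasi-likelihood test of edgeR 4.0.16 in R 4.3.3 (two-sided, no covariates) was run on rounded expected counts after filterByExpr and TMM scaling, with a Benjamini-Hochberg adjusted p under 0.05 over 16786 genes as the threshold. The study used DESeq2, here an alternative (1.42.0), as were scaling by RLE or by upper quartile, no low-count filter, 1 CPM in 3 libraries, limma 3.58.1 on log2(TPM + 1) and log2(TPM + 0.1), a length offset, a replicate block, an adjusted p under 0.01 and leaving out each library. The 9 genes carry no p or call, and the alternative threshold does not apply to their fold changes, which leaves them 15 of the 16.

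The members and the lists were chosen with earlier results of these data known. Named genes were the 9, MATR3, CTNNB1, each list's genes past the threshold (up to 6) and the 3 genes most like SOX4 and SOX9 (log2 CPM, prior count 2). Others (AXIN2, LGR5, ASCL2, SOX10, SOX15, the list genes at 0, SOX9-AS1, SOX2-OT, PRSS23 and SKP1) were named after their values were seen. The p-values weigh the difference between the groups against the spread between libraries of a group. No pair of libraries agreed within counting noise (chi-square per degree of freedom of 5.6 to 26.5 over genes). Symbols covered 88.3% of IDs. Names, biotypes and exon overlaps came from GENCODE on GRCh38, not the authors' build. On simulated counts for 3 against 3 over 16570 genes, edgeR recovered 85% of genes changed 2-fold and 52.6% of those changed 1.3-fold, with 11 calls among unchanged genes. Far fewer genes were changed there than edgeR called in the data, so these shares need not hold for the data.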

Additional observations from a re-analysis of the deposited data

How the results depend on the processing

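The fold changes of SOX4, SOX9, SOX13, TCF7 and TCF7L1 kept their direction under all 15 alternatives, and those of SOX12 and TCF7L2, close to 0, did not. The alternatives reuse the libraries in which SOX4 and SOX9 were chosen for their directions. Nothing is read from the kept directions of SOX4 and SOX9. The 1849 genes past the threshold became 437 and 429 with limma on log2(TPM + 1) and log2(TPM + 0.1), 791 with a length offset, 561 at an adjusted p under 0.01, and 759 to 1599 when a library was left out, the lowest without siMatrin3 replicate 3, with 770 without siCTRL replicate 3 and 1014 without siMatrin3 replicate 2.

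The 1 other SOX gene became 0 in both limma fits, with the length offset, at 0.01 and at the lowest of the fits without a library (0 to 1). The 1 beta-catenin complex gene became 2 with RLE scaling, 2 with upper quartile scaling, 2 with the 1 CPM filter, 0 at 0.01 and 0 to 2 without a library. The 3 WNT receptor genes became 0 in both limma fits, 1 with the length offset, 1 at 0.01 and 1 to 2 without a library. The 5 WNT targets became 3 in both limma fits, 3 with the length offset, 3 at 0.01 and 3 to 5 without a library. The cause of these moves was not tested.

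With the replicate number as a block, 2716 genes passed the threshold, and 4 of the beta-catenin complex list. Deviations of same-numbered libraries correlated at 0.177, 0.0896 and 7.2e-05, beside -0.145 to 0.0641 for libraries with different numbers. Whether the numbers pair the libraries was not tested. SOX2 and LEF1 had too few counts to be tested.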
